A study of Mus musculus with 11 samples.

Results

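The genes described here are 9 non-integrin molecules of adhesion and egress of mouse bone marrow LSK cells: Selplg, Cd44, Cd47, Alcam, Vcam1, Icam1, F11r, Pecam1 and S1pr1. They were taken by gene symbol from the deposited 9-array table, all 9 were found among its 28944 tested transcript clusters, and the row of highest mean was used for each. Only Cd47 had a second row. LSK cells lack lineage markers and carry Sca-1 and Kit, and this fraction of the marrow holds its stem cells and early progenitors. Cells of low density were prepared from the marrow, stained and sorted by flow cytometry, and biotin-labelled target made from their total RNA was read on whole-transcript Affymetrix mouse gene arrays. The knockout group (KO, MxlCre_KLF5KO in the labels) and the wild-type group (wt, MxlCre_KLF5WT) were both of strain C57BL/6, and both carried the Cre transgene that the labels spell MxlCre. Mx1-Cre is a Cre driven by the interferon-inducible Mx1 promoter, which is active in blood cells and in other tissues, so a deletion made with it is not confined to LSK cells. The age of the mice, their sex and any treatment that induced the Cre are not given in the labels. The comparison set 4 KO arrays (replicates 2 to 5) against 5 wt arrays (replicates 2 to 6). KO replicate 1 and wt replicate 1 were normalized in a table of their own, and their values are given beside the others without a test. The labels of this pair read MxCre_KLF5 and MxCre_WT instead. Whether the arrays come from separate animals is not in the labels, so p-values here reflect only how far these samples differ among themselves, and that may be technical.

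Blood stem and progenitor cells that enter the marrow from the blood first roll on its vessels, which is the work of selectins and of the sialylated and fucosylated glycoproteins they bind, and then arrest and cross the wall through integrins and their ligands of the immunoglobulin family. Cd47 marks a cell as self to macrophages, and Cd44 binds hyaluronan of the matrix. S1pr1 reads the gradient of sphingosine-1-phosphate between tissue and blood along which cells leave the marrow. The study's title ties Klf5, a zinc-finger transcription factor, to homing to the marrow and to integrins at the membrane. The comparison here asks whether transcripts of the non-integrin part of this machinery differed between the genotypes. Arrays read transcripts, not protein at the membrane or the sugar chains that make a selectin ligand.

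Signals are on the log2 scale, so a difference of 1 is a 2-fold change. Median signals were 5.93 to 6.03 on the 9 arrays, and the 5222 negative-control probe sets had medians of 5.27 to 5.62. The 95th percentiles of these controls were 8.76 to 9.34. Of the 9 adhesion genes only Cd47 lay above that percentile on any array, and it did so on all 9. Klf5 itself averaged 6.69 ± 0.08 in KO (SD, n = 4) and 6.89 ± 0.11 in wt (SD, n = 5), a difference of -0.20 that did not pass adjustment (limma adjusted p = 0.916). Its KO values, 6.58 to 6.76, lay just below its wt values, 6.77 to 6.98 (limma unadjusted p = 0.0279). The lowest wt value, 6.7692, was identical in wt replicates 2 and 6, and the highest KO value was 6.7592. Of all transcript clusters, 0.985% had groups that did not overlap. Since it is not known here whether its probes fall inside the deleted region, Klf5 checks the labels only in part. Of the LSK markers 11 of 11 lay above the negative-control median on every array. Kit was at 9.79 to 10.21 in KO and 10.09 to 10.38 in wt, and Ly6a, which encodes Sca-1, at 6.57 to 8.54 in KO and 6.85 to 8.29 in wt. Markers of cells that the sort should remove differed in level. The platelet gene Pf4 and the beta-globin gene Hbb-b1 were above the negative-control median on every array. The macrophage marker Adgre1 and the neutrophil marker Ly6g lay below it on 9 of 9 arrays. Ly6g does not stand for its list, since 5 of 12 neutrophil and granule genes lay above that median on every array and 3 below. Mean levels of marker lists are given below beside the results they touch. Y-linked and Xist signals were unevenly spread over the genotypes, with Xist at 9.59 to 11.12 in KO, against 4.88, 4.74, 5.47, 11.06 and 10.49 in wt. Y-linked means were 7.73, 4.12, 4.22 and 7.09 in KO, against 8.04, 7.90, 8.04, 4.42 and 7.09 in wt. KO replicates 2 and 5 and wt replicate 6 thus carried both signals, and whether an array holds RNA of more than 1 animal is not in the labels.

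No adhesion gene of the 9 differed between KO and wt LSK cells beyond the spread between arrays. Transcripts of 8 of the 9 lay above the negative-control median on every array, and Vcam1 lay below it on every array. Selplg, Icam1 and S1pr1 had nearly equal means in both genotypes. Alcam, F11r and Cd47 had the highest differences, 0.39, 0.33 and 0.22, and also the widest spread between arrays of 1 genotype. After adjustment 0 of 9 passed (limma, Benjamini-Hochberg over all tested rows; adjusted p 0.916 to 0.994), and of all 28944 transcript clusters 0 passed, that is 0%. At an unadjusted p under 0.05 there were 0 of 9 members, against 4.08% of all transcript clusters, and 0 of 9 had groups that did not overlap, against 0.985%. KO means were higher for 7 and lower for 2, with a median difference of 0.07, against -0.02 over all transcript clusters, of which 44.1% were higher in KO. For 7 of the 9 the 95% interval excluded a 2-fold change of the signal in either direction, and for Alcam and F11r it did not. Vcam1 is among the 7, but its signals are at background, so its interval bounds no change in the transcript. These signals come from bulk cells, in which fewer cells that express a gene and less of its RNA per cell cannot be told apart.

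**Figure D1:**
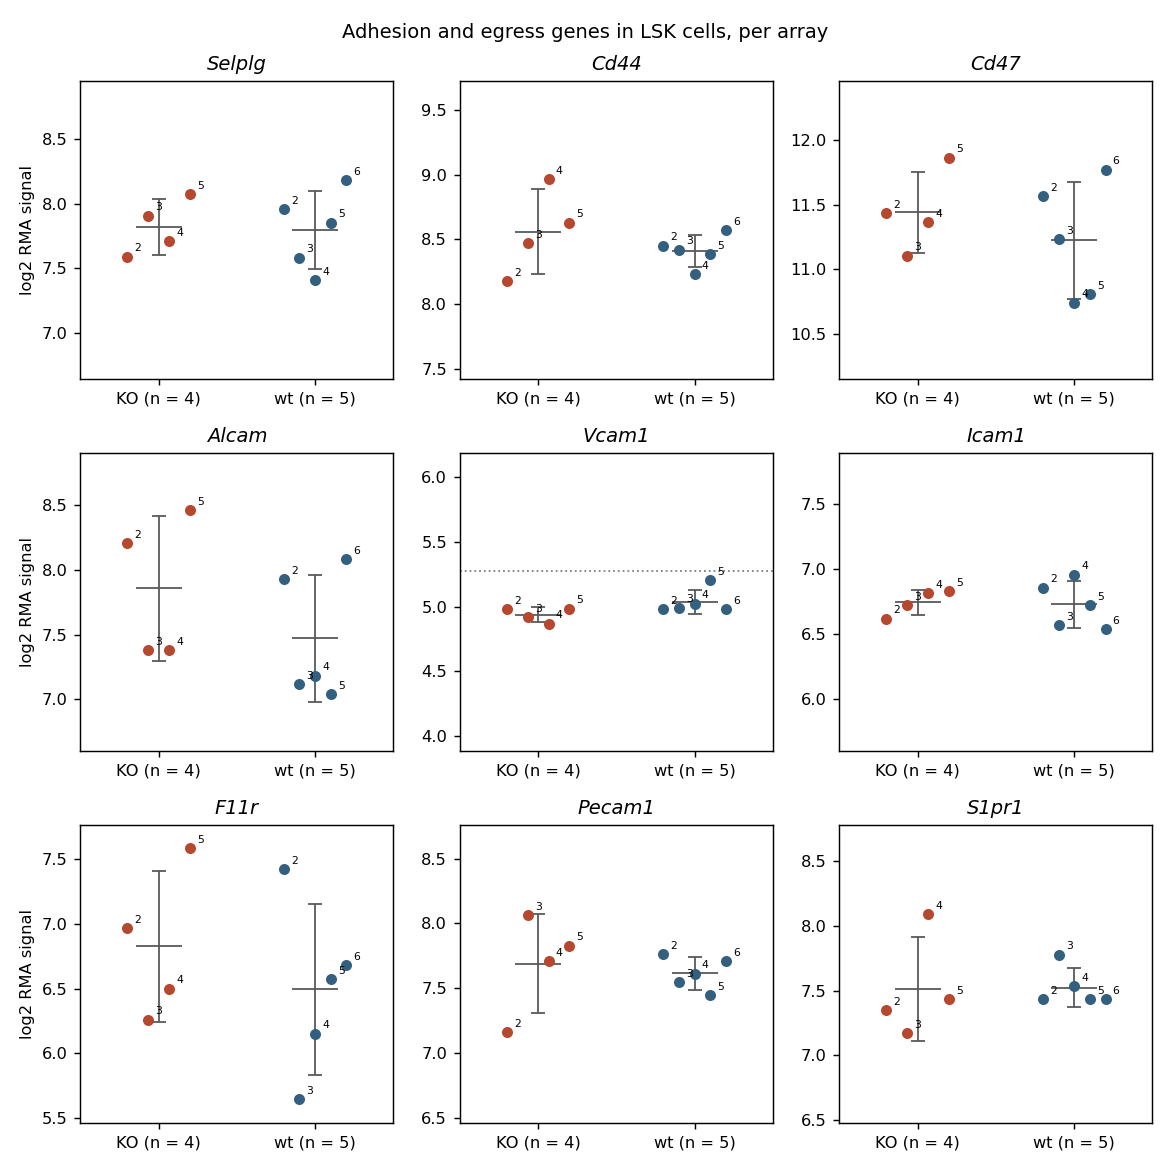
Log2 signal of each adhesion gene (vertical axis, 1 panel per gene) in the 4 KO arrays (left) and the 5 wt arrays (right) of the 9-array table, with horizontal lines at the group means, error bars of 1 SD and replicate numbers beside the points. The groups overlap in all 9 panels, and the dotted line in the Vcam1 panel is the lowest negative-control median of the 9 arrays, 5.27, which no Vcam1 value reaches.

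Selplg, which encodes PSGL-1, the main ligand of P-selectin on blood cells, was level in the genotypes. Its signals were 7.59, 7.91, 7.71 and 8.07 in KO, against 7.96, 7.58, 7.41, 7.85 and 8.18 in wt. Both the lowest and the highest array were wt arrays, and the KO values lay inside the wt range. The means were 7.82 ± 0.21 in KO and 7.80 ± 0.30 in wt, a difference of 0.02 (95% interval -0.35 to 0.39; limma adjusted p = 0.985). So small a difference had no stable sign: it was -0.01 without KO replicate 3, -0.06 without KO replicate 5, -0.03 without wt replicate 3 and -0.07 without wt replicate 4. With the Xist and Y-linked levels in the model it was -0.19. Selplg lay above 80.6% to 90.4% of the negative controls, depending on the array.

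Cd44, a receptor for hyaluronan whose sugar-decorated form HCELL binds E-selectin, had signals of 8.18, 8.47, 8.97 and 8.63 in KO, against 8.45, 8.42, 8.23, 8.38 and 8.57 in wt. KO arrays held both the lowest and the highest value, and the wt arrays lay close together between them. The means were 8.56 ± 0.33 in KO and 8.41 ± 0.12 in wt, with a difference of 0.15 (-0.18 to 0.48; limma adjusted p = 0.919). It rested largely on 1 array, since it was 0.01 without KO replicate 4, and 0.28 without KO replicate 2. Cd44 lay above 88.6% to 94.1% of the negative controls.

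The enzymes that build selectin ligands were split in direction. They include fucosyl-, sialyl-, galactosyl- and sulfotransferases and the makers of GDP-fucose. Of 20 genes 11 had higher and 9 lower means in KO, with a median difference of 0.00, and 0 passed adjustment. An unadjusted p under 0.05 was reached by 3 of the 20, against 4.08% of all transcript clusters. These were C1galt1, which makes the core 1 O-glycan, Fcsk, which salvages fucose, and B3gnt3, which extends core 1 O-glycans. B3gnt3 was named after its values were seen. C1galt1 was at 7.51, 7.68, 7.90 and 7.48 in KO, against 7.48, 6.95, 6.77, 7.10 and 7.51 in wt. It was higher on average in KO by 0.48 (0.10 to 0.86; limma adjusted p = 0.916), while wt replicates 2 and 6 reached the level of the lower KO arrays. Fcsk differed by -0.37, with means of 5.90 in KO and 6.27 in wt, and B3gnt3 by -0.28, at 5.24 in KO and 5.52 in wt, a level close to the negative-control medians. Fut7, the fucosyltransferase that completes sialyl Lewis X on leukocytes, averaged 6.50 in KO and 6.50 in wt.

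Selectins and the sialomucin scaffolds of their ligands did not pass either. Of 14 genes 8 had a higher and 6 a lower KO mean, and their median difference was 0.06. Sele, the E-selectin of endothelium, averaged 7.22 in KO and 6.84 in wt, and KO replicate 3, at 8.03, stood above the other 3 KO arrays, which lay inside the wt range of 6.58 to 7.01. Beside it, the endothelial and stromal marker list had mean levels of 5.42 to 5.50 in KO and 5.40 to 5.59 in wt, with 8 of its 18 genes above and 7 below the negative-control median on every array. Of the Cd44 side, 16 genes of hyaluronan and of the ezrin, radixin and moesin linkers of membrane to actin gave 8 higher and 8 lower, with a median of 0.00. Ezr, which encodes ezrin, differed by 0.23, with means of 8.14 in KO and 7.91 in wt.

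Alcam, F11r and Cd47 shared a pattern over the arrays that crossed the genotypes. Alcam (CD166) is an immunoglobulin-family molecule that binds itself and CD6. F11r is JAM-A, a junction molecule that binds itself and the integrin LFA-1. Cd47 binds the macrophage receptor SIRP-alpha. Each, Cd47 in its brighter row only, had its 4 highest values in KO replicates 2 and 5 and wt replicates 2 and 6, the arrays in which Hbb-b1 was also highest. Their promoters are shown because these 3 members shared their 4 highest arrays. Each run is the 300 bases from 250 before to 50 after the start, 5′ to 3′ on the gene's strand, from RefSeq on GRCm38.p6. It covers chr16:52453032-52453331 on the minus strand for Alcam, chr1:171437311-171437610 on the plus strand for F11r and chr16:49855404-49855703 on the plus strand for the first of 2 Cd47 start sites. Capitals mark the GC box GGGCGG and the motif CACCC, letters of the kind that SP and KLF factors bind, searched on both strands (CCGCCC and GGGTG), and no 2 marked matches overlapped.
Alcam: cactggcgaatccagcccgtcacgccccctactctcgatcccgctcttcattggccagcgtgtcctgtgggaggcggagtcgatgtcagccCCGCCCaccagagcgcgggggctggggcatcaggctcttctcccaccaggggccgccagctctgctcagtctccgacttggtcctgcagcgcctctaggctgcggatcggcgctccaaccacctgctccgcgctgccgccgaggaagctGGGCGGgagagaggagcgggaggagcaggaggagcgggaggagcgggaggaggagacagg
F11r: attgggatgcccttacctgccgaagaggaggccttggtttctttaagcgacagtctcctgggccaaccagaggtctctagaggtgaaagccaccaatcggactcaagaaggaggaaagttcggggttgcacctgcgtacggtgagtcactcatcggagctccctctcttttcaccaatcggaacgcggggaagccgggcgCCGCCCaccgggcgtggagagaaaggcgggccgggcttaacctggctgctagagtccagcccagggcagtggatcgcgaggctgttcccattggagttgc
Cd47: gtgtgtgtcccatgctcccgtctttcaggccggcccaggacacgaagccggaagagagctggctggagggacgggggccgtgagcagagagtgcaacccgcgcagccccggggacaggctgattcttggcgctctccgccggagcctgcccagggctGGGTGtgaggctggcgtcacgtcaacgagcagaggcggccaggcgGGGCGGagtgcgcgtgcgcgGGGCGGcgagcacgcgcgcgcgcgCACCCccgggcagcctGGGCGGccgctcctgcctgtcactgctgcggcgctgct
Alcam held 2 GC boxes and no CACCC, F11r 1 GC box and no CACCC, and Cd47 3 GC boxes and 2 CACCC. Of the 9 members 5 had an entry, and Cd44 and Icam1 held a GC box too. Among 32544 RefSeq promoters of the same length 35.9% held the GC box and 57.7% CACCC. Cd47 held 35 CG pairs, Alcam 25 and F11r 19, against a median of 7. These matches describe the letters only and carry no information on binding.

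Alcam signals were 8.20, 7.38, 7.38 and 8.46 in KO, against 7.93, 7.12, 7.18, 7.04 and 8.08 in wt. In each genotype 2 arrays stood well above the rest. The means were 7.86 ± 0.56 in KO and 7.47 ± 0.49 in wt, a difference of 0.39 (-0.30 to 1.08; limma adjusted p = 0.916; exact permutation p = 0.294, two-sided). The interval runs from 0.81-fold to 2.11-fold. Among the 4 arrays with high Hbb-b1, Alcam was at 8.20 and 8.46 in KO, against 7.93 and 8.08 in wt. Among the other 5 it was at 7.38 and 7.38 in KO, against 7.12, 7.18 and 7.04 in wt. KO thus lay above wt within both sets, as in 0.902% of all transcript clusters. This look within sets was chosen after the values were seen, and the sets were read from the data, so no test is given. The difference was 0.18 without KO replicate 5 and 0.545 without KO replicate 4, and Alcam lay above 75.6% to 93.2% of the negative controls.

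F11r had signals of 6.97, 6.26, 6.50 and 7.58 in KO, against 7.42, 5.65, 6.15, 6.57 and 6.68 in wt. It had the widest spread of the 9 genes within a genotype, an SD of 0.63, and 96.7% of all transcript clusters had a smaller one. The means were 6.83 ± 0.58 in KO and 6.49 ± 0.66 in wt, a difference of 0.33 (-0.49 to 1.16; limma adjusted p = 0.919), which is 0.71-fold to 2.23-fold. It was 0.08 without KO replicate 5 and 0.56 without wt replicate 2. F11r lay above 54.6% of the negative controls on its lowest array, wt replicate 3, and above 85.6% on its highest.

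Cd47 signals were 11.43, 11.11, 11.36 and 11.86 in KO, against 11.57, 11.23, 10.74, 10.81 and 11.77 in wt. It was among the brightest transcripts, above 98.6% to 99.5% of the negative controls. The means were 11.44 ± 0.31 in KO and 11.22 ± 0.45 in wt, a difference of 0.22 (-0.32 to 0.75; limma adjusted p = 0.919), 0.08 without KO replicate 5 and 0.35 without wt replicate 6. A second Cd47 row was at 9.96, 10.09, 10.24 and 10.47 in KO, against 10.40, 10.33, 10.03, 9.89 and 10.28 in wt. Its difference was 0.00 (-0.31 to 0.31), so the rows did not share the higher KO mean. Nor did this row share the array pattern, since KO replicate 2 was its second lowest array. Of 9 genes of Cd47's partners and signalling, 6 had a higher and 3 a lower mean in KO, their median difference was 0.07, and 0 had an unadjusted p under 0.05. Ptpn11, the phosphatase SHP-2 that SIRP-alpha recruits, was at 8.80, 8.13, 8.19 and 8.13 in KO, against 8.19, 7.85, 7.97, 7.37 and 8.13 in wt. Qpctl, the enzyme that forms the pyroglutamate by which Cd47 is recognised, differed by 0.20. Macrophage markers, beside them, had list means of 5.13 to 5.25 in KO and 5.12 to 5.34 in wt, with 2 of 14 above and 6 below the negative-control median on every array.

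The lowest of the 4 high arrays and the highest of the other 5 were 7.93 and 7.38 for Alcam, 6.68 and 6.57 for F11r, and 11.43 and 11.36 for Cd47. The gap was wide for Alcam and narrow for F11r and Cd47. Over all transcript clusters 3.13% had the same 4 arrays highest. Several marker levels moved with this pattern. Hbb-b1 was at 9.08 and 10.63 in KO replicates 2 and 5 and at 9.85 and 10.63 in wt replicates 2 and 6, against 7.01 to 7.20 in the other KO arrays and 6.62 to 7.46 in the other wt arrays. Ly6a was at 7.95 and 8.54 in those KO arrays and 8.29 and 8.07 in those wt arrays, against 6.57 and 7.28 in the other KO arrays and 6.85 to 7.59 in the other wt arrays. The LSK list mean was highest in the same 4 arrays, at 8.54 and 8.77 in KO and 8.71 and 8.64 in wt, as was the B cell list mean, at 5.90 and 6.01 in KO and 6.11 and 6.76 in wt. The mast cell and basophil list mean was lowest in these 4 arrays, at 5.67 and 5.76 in KO and 5.47 and 5.53 in wt, against 6.56 and 6.09 in the other KO arrays and 5.85 to 6.10 in the other wt arrays. Kit, the other marker that names LSK cells, followed only in part. It was at 10.214 in KO replicate 5 and at 10.22 and 10.223 in wt replicates 2 and 6, but highest in wt replicate 4, at 10.384. In KO replicate 2 Kit was at 9.998, below KO replicate 4 at 10.174 and wt replicates 3 and 5 at 10.167 and 10.085. Hba-a1, another globin gene, also had these 4 arrays highest, at 6.465 and 8.478 in KO and 7.72 and 8.47 in wt. The other KO arrays were at 6.01 and 5.354 and the other wt arrays at 5.547 to 6.095. The erythroid list mean, which includes both globin genes, did not follow them. In KO it ran between 6.74 in replicate 2 and 7.02 in replicate 3, and in wt between 6.68 in replicate 3 and 7.20 in replicate 6. The neutrophil list mean was 6.10, 6.89, 6.18 and 6.74 in KO and 6.11 to 6.35 in wt. The part of these in the levels of Alcam, F11r and Cd47 was not tested. Selplg, Cd44, Vcam1, Icam1, Pecam1 and S1pr1 did not have these 4 arrays highest. Moving together was not confined to the 3 genes. After genotype means were removed, Pearson's r was 0.857 for Cd47 and Alcam, 0.799 for Alcam and F11r and 0.613 for Cd47 and F11r. With Selplg it was 0.679 for Cd47, 0.579 for F11r and 0.563 for Alcam.

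**Figure D2:**
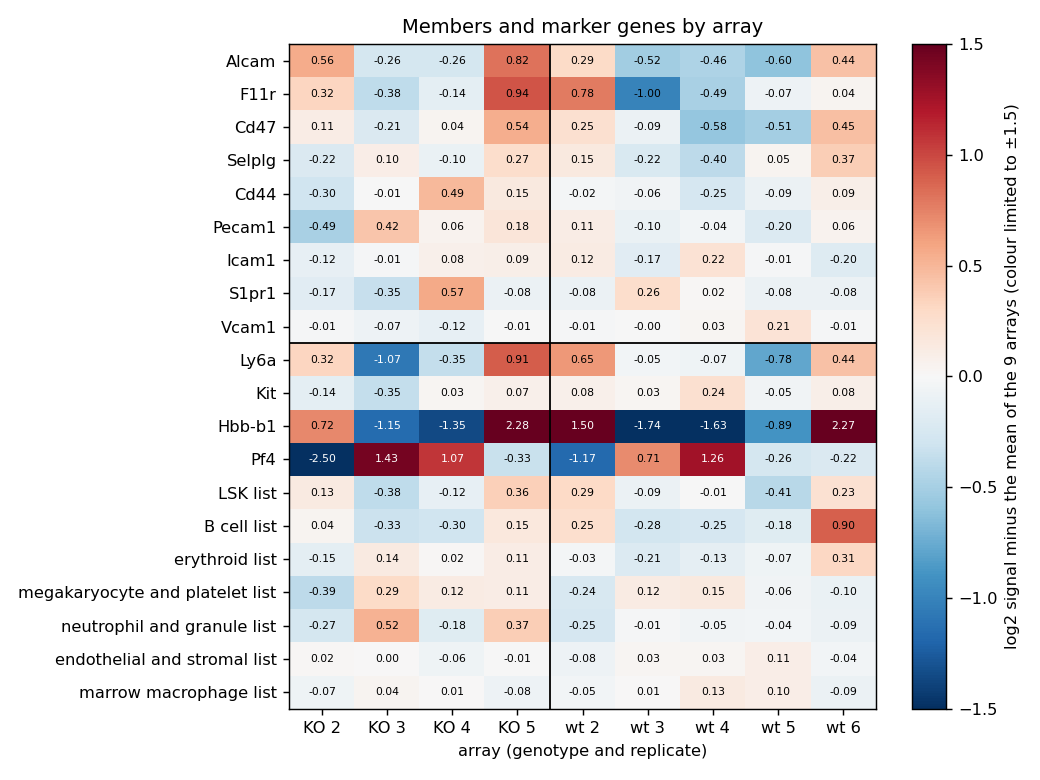
Deviation of each adhesion gene and of Hbb-b1 and other markers from its own mean over the 9 arrays (colour, in log2 units), with KO arrays in the left columns and wt arrays in the right ones. Alcam, F11r and Cd47 are above their means in KO replicates 2 and 5 and wt replicates 2 and 6, the arrays in which Hbb-b1 is highest.

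Icam1, a ligand of the beta2 integrins, was level in the genotypes. Its signals were 6.62, 6.72, 6.81 and 6.83 in KO, against 6.86, 6.57, 6.96, 6.72 and 6.54 in wt. The KO arrays lay within the wt range. The means were 6.75 ± 0.10 in KO and 6.73 ± 0.18 in wt, a difference of 0.02 (-0.21 to 0.25; limma adjusted p = 0.983). Its sign turned without KO replicate 4 (-0.01), KO replicate 5 (-0.01), wt replicate 3 (-0.02) or wt replicate 6 (-0.03). Icam1 lay above 68.7% to 75.8% of the negative controls.

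Vcam1, the ligand of the integrin VLA-4 that marrow stroma, endothelium and macrophages carry, was not above background in either genotype. Its signals were 4.98, 4.92, 4.87 and 4.99 in KO, against 4.98, 4.99, 5.02, 5.20 and 4.98 in wt. All 9 lay below the negative-control median of their array, and only 38.1% to 48.3% of the negative controls lay below them. The difference of -0.10 (-0.26 to 0.06; limma adjusted p = 0.916) is one between background signals and bounds no change in the transcript. Endothelial Cdh5, at 5.39 to 5.81 over the 9 arrays, was also close to the negative-control medians.

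Pecam1 (CD31) is a molecule of endothelium, platelets and early blood cells that binds itself. It lay above 78.2% to 88.3% of the negative controls, and below their 95th percentile on every array. Its signals were 7.16, 8.06, 7.71 and 7.83 in KO, against 7.76, 7.55, 7.61, 7.45 and 7.71 in wt. KO arrays held the lowest and the 2 highest values. The means were 7.69 ± 0.38 in KO and 7.62 ± 0.12 in wt, a difference of 0.07 (-0.29 to 0.44; limma adjusted p = 0.955). The array left out decided its sign and size: it was -0.05 without KO replicate 3 and 0.25 without KO replicate 2 (limma unadjusted p = 0.0464). Pf4 and the megakaryocyte list mean were, like Pecam1, lowest in KO replicate 2, but the wt arrays did not follow this order. Pf4, a platelet chemokine, was at 6.79 in KO replicate 2, against 8.95 to 10.72 in the other KO arrays and 8.12 to 10.54 in wt. The megakaryocyte list mean was 6.24 in KO replicate 2, against 6.74 to 6.92 in the other KO arrays and 6.40 to 6.79 in wt. Among wt arrays, replicate 2 had the highest Pecam1 value, 7.76, but the lowest Pf4, 8.12, and the lowest list mean, 6.40. The part of these markers in the Pecam1 values was not tested.

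Other immunoglobulin-family and junction genes were split. Of 24 genes, 10 had a higher and 14 a lower mean in KO, their median difference was -0.03, and 0 passed adjustment. Jam2, a relative of F11r, was at 5.86, 6.24, 5.97 and 6.59 in KO, against 5.86, 5.94, 5.94, 5.60 and 5.86 in wt. It averaged 0.33 higher in KO, which did not pass (limma adjusted p = 0.916). Cd48, a marker of committed progenitors within LSK cells, differed by 0.32, but KO replicate 2, at 9.39, stood apart from the other KO arrays at 8.46 to 8.75 and the wt arrays at 8.25 to 8.76. The 1 gene of the 24 at an unadjusted p under 0.05 was L1cam, named after its values were seen, with means of 5.47 in KO and 5.69 in wt. That count is near the share over all transcript clusters, 4.08%.

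The integrin subunits that bind Icam1, Vcam1 and F11r gave 7 higher and 3 lower of 10, with a median of 0.04. Itga4, the alpha chain of VLA-4, averaged 9.28 in KO and 9.27 in wt. Itgav, an alpha chain shared by several integrins, averaged 6.94 in KO and 6.67 in wt, and 0 of the 10 had an unadjusted p under 0.05. Genes of the NF-kB pathway, which induces Icam1 and Vcam1 in inflamed vessels, gave 7 higher and 8 lower of 15. Their median difference was -0.03, and 0 had an unadjusted p under 0.05. Tnip1, a brake on this pathway, differed by -0.18 and Rela, a subunit of NF-kB, by 0.15.

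S1pr1, the receptor for sphingosine-1-phosphate that guides egress, was level in the genotypes. Its signals were 7.35, 7.17, 8.09 and 7.43 in KO, against 7.43, 7.78, 7.54, 7.43 and 7.43 in wt. KO replicate 4 was the highest of all 9 arrays and KO replicate 3 the lowest. One KO and 3 wt arrays held the identical value 7.4349, and 14.7% of all transcript clusters had a value shared by 4 or more arrays. A value shared by 2 or more arrays occurred in 57.5% of all transcript clusters, and also in Vcam1, Icam1 and Pecam1. The means were 7.51 ± 0.40 in KO and 7.52 ± 0.15 in wt, a difference of -0.01 (-0.40 to 0.38; limma adjusted p = 0.994). It was -0.21 without KO replicate 4, and 0.10 without KO replicate 3, 0.04 without KO replicate 2, 0.01 without KO replicate 5 and 0.05 without wt replicate 3. Scaling set its sign too, since it was 0.02 after centring each array on its median.

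Of 23 genes that make, break, carry or read sphingosine-1-phosphate, 12 had a higher and 11 a lower KO mean, and their median difference was 0.01. Gna12, a G protein alpha subunit downstream of S1P receptors, was the 1 gene of the 23 at an unadjusted p under 0.05, near the 4.08% over all transcript clusters. It was at 5.95, 6.40, 6.27 and 6.28 in KO, against 6.32, 6.60, 6.55, 6.54 and 6.48 in wt, a difference of -0.27 (limma adjusted p = 0.916). KO replicate 3 lay above wt replicate 2, so the groups overlapped. Sgpp1, a phosphatase that removes the phosphate, averaged 6.81 in KO and 6.50 in wt, with 5 of the 9 arrays at the identical 6.71.

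**Figure D3:**
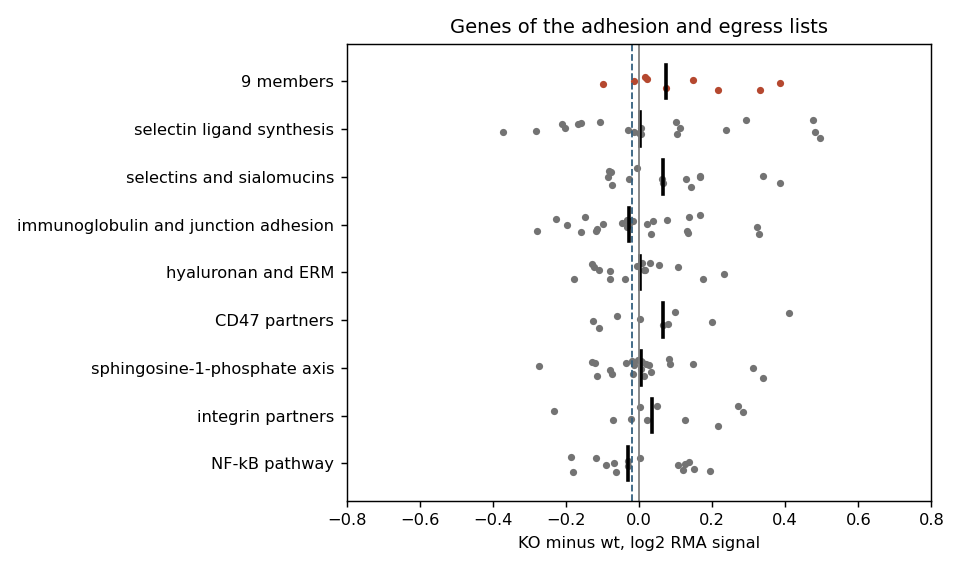
KO minus wt difference in log2 signal (horizontal axis) of each of the 9 members (red points, top) and of each gene of the 8 pathway lists (grey points), with black bars at the list medians and a dashed line at the median of all transcript clusters, -0.02. The list medians lie between -0.03 and 0.07, and no point is a gene that passed adjustment.

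Genes whose signals followed each member most closely over the 9 arrays, after each genotype's mean was removed, were ranked by Pearson's r among 12249 transcript clusters. With so few arrays high values arise among so many candidates, and the arrays share their hybridisation and scaling, so these are descriptions only. Lsm2 (r = 0.98) led for Selplg, Kdelr1 (0.99) for Cd44, Hnrnpm (0.98) for Cd47, Rpl19 (0.98) for Alcam and Gys1 (0.97) for F11r. For Pecam1 it was Egln3 (0.99), for S1pr1 Adamts9 (0.97) and for Icam1 Tmem221 (0.96).

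In the separately normalized pair, Alcam was at 9.15 in KO and 9.09 in wt, and Cd47 at 12.44 in KO and 12.45 in wt, which are smaller differences than in the 9-array table. F11r was at 7.72 in KO and 7.43 in wt, a difference of 0.29 beside 0.33 in the 9-array table. Icam1 was at 7.27 in KO and 7.04 in wt, a wider gap than between its means in that table. Cd44 was at 9.17 in KO and 9.32 in wt, S1pr1 at 8.13 in KO and 7.95 in wt, and Pecam1 at 8.73 in KO and 8.55 in wt. Selplg, at 8.62 in KO and 8.57 in wt, and Vcam1, at 4.90 in KO and 4.92 in wt, were nearly equal. With 1 array a genotype these differences have no replicate check.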

How the data were processed

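The authors deposited gene-level log2 RMA signals, per the file headers, in tables of 9 and 2 arrays that were normalized separately. The submitters' processing notes name Affymetrix Expression Console as the tool. A deposited value table of all 11 arrays, also log2, equalled the RMA columns within 5e-05 and tied each column to its replicate. Of 35556 rows, 6612 control rows were left out. Symbols were updated through RefSeq accessions (22173 rows matched). Differences are KO minus wt from limma 3.58.1 in R 4.3.3 (lmFit, eBayes, two-sided), adjusted by Benjamini-Hochberg over 28944 rows with a threshold of 0.05. The fit was tested on simulated data. The median standard error was 0.116. The methods' t-test was an alternative, with 1150 rows at an unadjusted p under 0.05 and 0 after adjustment. The members and lists were chosen with earlier results of these data known, as were the tests. Each list names up to 3 genes, those of lowest p with a higher-group mean above the median row, and a few more by role; 1 gene of these is not reported here. Alternatives were the scaling, filters, array weights, replicate numbers as a block, sex-linked covariates, all 11 arrays and each array left out. Figures were drawn with matplotlib 3.10.9.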

Additional observations from a re-analysis of the deposited data

Results flagged for a closer look

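In 56 groups of 4 or 5 arrays, 2 held an array far from the others of its genotype, where chance gives about 2.8. Vcam1 was high in wt replicate 5, at 5.20, in the range of background. The mean of the hyaluronan, ezrin, radixin and moesin genes was high in wt replicate 3, at 6.095, against 6.006 to 6.022 in the other wt arrays.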

How the results depend on the processing

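Over 23 settings Cd44, Cd47, Alcam and F11r kept a higher KO mean, Vcam1 kept a lower one in the 22 settings that measured it, and no gene of the 9 passed adjustment in any (lowest adjusted p 0.764). Several settings could not move a difference, namely the other tests, the other threshold, the row filter and the value table. The replicate blocks gave the same differences as leaving out wt replicate 6 (title numbers) or wt replicate 2 (description numbers). The count of settings thus overstates how often direction was checked. Array weights reduced Alcam to 0.09, F11r to 0.07 and Cd47 to 0.05; the cause was not tested. The sign of S1pr1 turned with all 11 arrays and a table term (0.024), median centring (0.021), array weights (0.092) and Xist and Y-linked covariates (0.063). That of Selplg turned with quantile normalization (-0.031), array weights (-0.036) and those covariates (-0.186). With each array left out, Selplg lay between -0.074 and 0.119, Icam1 between -0.031 and 0.074, Pecam1 between -0.051 and 0.251 and S1pr1 between -0.206 and 0.10. Genes at an unadjusted p under 0.05 numbered 0 to 1 with an array left out. Correlations of deviations did not settle whether the replicate numbers pair the samples. Between arrays of the same title number they were -0.242 to 0.133, and by the numbers in the descriptions -0.051, 0.066, 0.121 and 0.404. The value of 0.404, for KO replicate 5 and wt replicate 6, was the highest between any KO and any wt array. With the title numbers as a replicate block Icam1 was -0.031, and 1526 rows of all tested had an unadjusted p under 0.05. With the numbers in the descriptions as a replicate block 2 members did (Alcam and Cd47) and 1679 rows. Leaving out 1 array moved the count of all rows between 798 (without KO replicate 3) and 1698 (without KO replicate 5), against 1181. Median centring turned its split to 695 higher and 445 lower, against 420 and 761, and the median of all rows to 0.015. Klf5 was at p = 0.0317 in an exact permutation test, unadjusted, where 0.00794 is the smallest possible. A filter on rows above the negative controls left Vcam1 untested. The number of arrays limits precision, and signals near the negative controls bound no change.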
